A study of Homo sapiens with 15 samples.

Results

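The early response to an induced mutant IDH1 was read from 7 of the 15 samples of the series: 4 libraries of cells at day 3 of doxycycline and 3 libraries of untreated cells, all with the tag b2 in their titles. The cells were immortalized human astrocytes (IHA), an established line of fetal origin that carries SV40, and the protocol text states that doxycycline at 1 µg/ml induced mutant IDH1, which the design text names as R132H. Both groups carry the genotype label WT IDH1, as does every other sample, and they differ in the labels by doxycycline alone. The titles number the untreated libraries 1, 2 and 4 and the day 3 libraries 9 to 12, and 4 libraries at day 7 of the same tag (17 to 20) served to estimate the spread and as a later time point. Cells given doxycycline without the inducible gene are not among the samples, and the untreated samples carry no day, so mutant IDH1, doxycycline itself and time in culture cannot be told apart. The labels do not say that the libraries of a group came from separate cultures, so p-values measure only the spread between these libraries.

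IDH1 turns isocitrate into alpha-ketoglutarate in the cytosol, and the R132H form instead reduces alpha-ketoglutarate to 2-hydroxyglutarate. This metabolite competes with alpha-ketoglutarate at members of a family of oxygen-dependent dioxygenases, among them histone and DNA demethylases. The prolyl hydroxylases that mark the hypoxia factor HIF for destruction and the collagen hydroxylases belong to the same family. How the metabolite acts on them was not tested here. Alpha-ketoglutarate and glutamate are also substrates and products of the transaminases by which cells make serine and other amino acids, and a shortage of amino acids is known to switch on the transcription factor ATF4.

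MARS-seq counts 3′ ends with unique molecular identifiers (UMIs), so each count stands for a captured molecule. The 7 libraries held 1816599 to 4369979 UMIs over 12575 listed genes, of which 10586 had enough counts to be tested, and levels are given as CPM, counts scaled to a common library size with edgeR's TMM factors. Log2 CPM of pairs of libraries within the untreated and within the day 3 group had r of 0.978 to 0.987, and their counts differed 1.93 to 2.84 times as much as counting alone would give (chi-square per degree of freedom), so no pair was a repeat of 1 library. The first principal component of the 7 libraries took 27.6% of the variance and parted the untreated from the day 3 libraries. The second took 21% and was highest in untreated library 1 (14.3) and day 3 library 9 (19.6) and lowest in untreated library 4 (-4.91) and day 3 library 12 (-17.2), so that the libraries of both groups stood in the order of their title numbers. The labels do not say what the numbers stand for. A second deposited table gives other counts for the same untreated libraries. Of 142 genes named here or in the closing section and matched between the tables, 133 had counts within 1.5 times of each other after scaling for depth. Among the exceptions, ASNS has 297 to 597 UMIs per untreated library here and 4 to 8 there. NUPR1 and BNIP3 stand at 2.396 and 2.07 times, and TNC at 0.322 times, the level of that table. GPI, CANX, ERCC2, IDH3A and KCNAB1 stand at 0.546 to 0.585 times. The scaling shifts these ratios: DUSP2, with 45 to 59 UMIs in both tables, stands at 1.201 times. Some genes within 1.5 times therefore still differ in raw counts, such as IL11, with 530 to 937 UMIs here and 891 to 1567 there. The day 3 libraries are in the table used here alone, so that their changes have no second count.

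The targeted gene was read first. In untreated libraries 1, 2 and 4 IDH1 (GRCh38 chromosome 2, 208236227 to 208266074, minus strand) had levels of 36.9, 28.1 and 38.3 CPM, and in day 3 libraries 9 to 12 of 42.2, 35.1, 44.6 and 35.5 CPM. The groups overlap, and edgeR did not call the log2 change of 0.21 ± 0.14 (SE; adjusted p = 0.494). The level does not check the induction, because a 3′ tag misses a transgene whose 3′ end differs from that of the gene, and no source used here describes that end. Its relatives in mitochondria were IDH2 (-0.13 ± 0.08, adjusted p = 0.444), which makes alpha-ketoglutarate with NADP, and IDH3A (0.28 ± 0.16) and IDH3G (0.19 ± 0.08), subunits of the NAD-dependent enzyme of the citric acid cycle, and none of them was called. IDH3B, the other subunit, rose from 170.1 ± 2.94 to 206 ± 13.6 CPM (SD, n = 3 and n = 4; log2 change 0.28 ± 0.07, adjusted p = 0.0331), a call lost without untreated library 1, 2 or 4 or day 3 library 10 or 12 (adjusted p up to 0.125) and with library size as the scaling or thinned counts. Of the enzymes that make or remove 2-hydroxyglutarate, D2HGDH, which oxidizes the D form, had a log2 change of 0.08 ± 0.13, and the malate dehydrogenases MDH1 and MDH2 had 0.05 ± 0.10 and 0.05 ± 0.08. PHGDH, the first enzyme of serine synthesis, which can also make 2-hydroxyglutarate, was the single called member of the 6 tested and fell.

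At day 3, 372 of 10586 genes (3.51%) passed edgeR's quasi-likelihood test at a threshold of 0.05 on the p adjusted by Benjamini-Hochberg, 195 higher (1.84%) and 177 lower (1.67%). Before adjustment 1746 of the 10586 had a p under 0.05, which is the background for such counts per list below. Most changes were small: the median size among called genes was 0.50 on the log2 scale, 16 genes rose at least 2-fold (0.151%) and 25 fell at least 2-fold (0.236%). The untreated and day 3 values did not overlap in 366 of the 372, against 1772 of all genes tested (16.7%). Those 1772 were 910 higher (8.60%) and 862 lower (8.14%). Scaling by total counts without TMM moved the split to 129 higher and 240 lower. Leaving out 1 library gave 213, 191 and 207 calls without untreated library 1, 2 and 4, 229 and 228 without day 3 library 10 and 12, and 578 without day 7 library 17, whose counts stood furthest from those of its own group (chi-square per degree of freedom up to 5.54). In the authors' deposited table of the same comparison, 245 genes had an adjusted p under 0.05, and 237 of these were called here, 96.7% of their list and 63.7% of the list here, all in the same direction. A set of 127 genes, 57 higher and 70 lower, was called in all 11 fits that left out 1 library, and the called genes named below belong to it unless a library is named. Thinned counts, named below where they end a call, are counts drawn down to the depth of the smallest library. In bulk samples, fewer cells of a kind and less RNA per cell cannot be told apart.

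**Figure D1:**
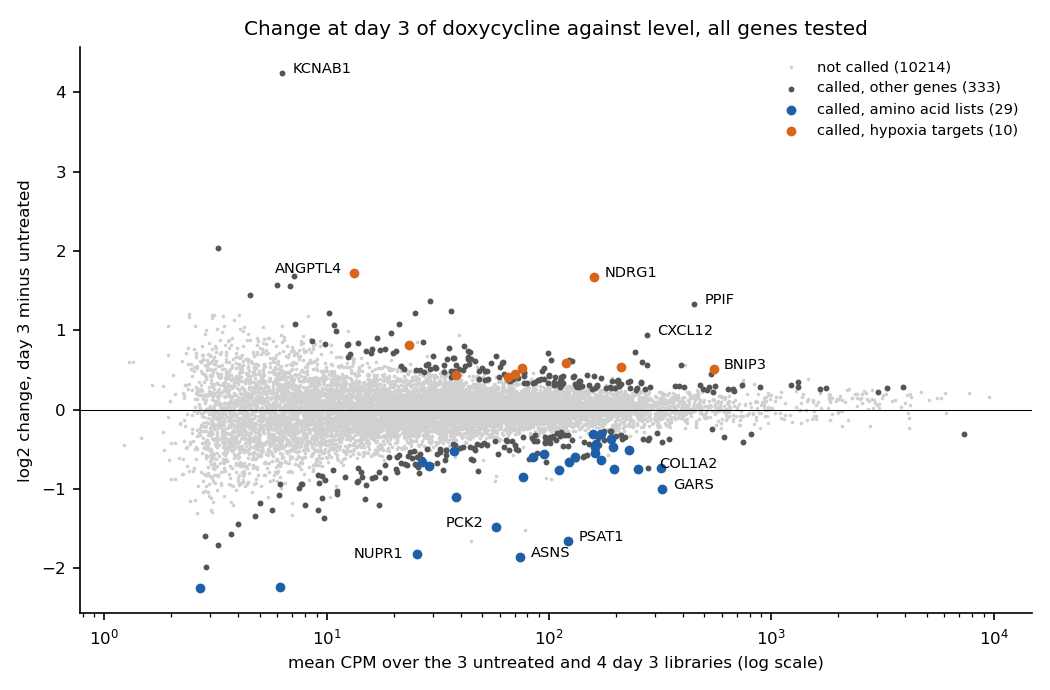
Log2 change at day 3 of doxycycline against untreated (vertical) by mean CPM over the 7 libraries on a log axis (horizontal), 1 point per gene tested. Blue points are the 29 called genes of the amino acid lists, which all lie below 0, orange points the 10 called hypoxia targets, which all lie above 0, dark points other called genes and light points genes not called.

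The clearest group change at day 3 was a fall of genes of amino acid synthesis, tRNA charging and amino acid transport. All gene lists were chosen with earlier results of these data known, which can raise the shares called. Of 69 genes tested on 3 lists (amino acid response and ATF4 targets, cytosolic aminoacyl-tRNA synthetases, amino acid transporters), 29 fell (42.0%, against 1.67% of all genes) and 0 rose. By list, 14 of 31 amino acid response genes, 10 of 23 synthetases and their partners and 5 of 15 transporters fell, with median log2 changes of -0.47, -0.14 and -0.13 beside 0.00 for all genes tested. The 29 were 26 to 36 when 1 library was left out, and 27 with DESeq2 and 29 with limma-voom. Of the same 69 genes, 2 rose without day 7 library 17 and 3 with the untreated and day 3 libraries alone. Outside the calls, 10 of the 23 synthetase genes had a log2 change above 0, such as DARS (0.54 ± 0.20, adjusted p = 0.191) and KARS (0.25 ± 0.07, adjusted p = 0.0599). DARS is the synthetase for aspartate and KARS that for lysine.

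Leaving aside called genes that averaged under 20 CPM, asparagine synthetase fell most. ASNS (chromosome 7, 97852118 to 97872542, minus strand), which makes asparagine from aspartate and glutamine, stood at 118, 133 and 129 CPM untreated and at 37.7, 34.0, 35.1 and 33.6 CPM at day 3. The highest day 3 library lay far below the lowest untreated one, and ASNS fell 3.63-fold (log2 change -1.86 ± 0.10, SE; adjusted p = 5.61e-14). Its untreated level rests on the counts of this table, since the second table holds 4 to 8 UMIs of it in the same libraries. At day 7 it stood at 27.8 ± 2.12 CPM (SD, n = 4), and the difference from day 3 did not pass the test (log2 -0.33 ± 0.11, adjusted p = 0.0736). Between day 7 and day 3, 537 of all genes tested were called (5.07%), 292 higher and 245 lower at day 7, and the day 3 libraries enter both contrasts. PCK2, the mitochondrial enzyme that makes phosphoenolpyruvate, stood at 90.4, 87.1 and 94.8 CPM untreated and at 36.1, 27.8, 30.6 and 35.5 CPM at day 3. Its groups were far apart too, and PCK2 fell 2.80-fold (log2 change -1.49 ± 0.11, adjusted p = 2.46e-10).

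Serine synthesis branches from glycolysis in 3 steps, and all its enzymes fell. PHGDH, which opens the branch, stood at 421, 405 and 411 CPM untreated and at 258, 234, 241 and 257 CPM at day 3 (log2 change -0.74 ± 0.07, adjusted p = 2.58e-08). PSAT1 (chromosome 9, 78297143 to 78330093, plus strand), the transaminase of the middle step, which yields alpha-ketoglutarate from glutamate, stood at 191, 215 and 194 CPM untreated and at 67.6, 64.0, 60.8 and 61.2 CPM at day 3. No day 3 value of either gene reached an untreated value, and PSAT1 fell 3.17-fold (log2 change -1.66 ± 0.09, adjusted p = 5.61e-14). PSPH, which releases serine, fell from 37.2 ± 2.44 to 22.5 ± 3.11 CPM (SD, n = 3 and n = 4; log2 change -0.71 ± 0.13, adjusted p = 0.00155). Downstream, SHMT2, which splits serine into glycine and a one-carbon unit in mitochondria, fell by 0.47 on the log2 scale (adjusted p = 0.000212), and MTHFD2, the next enzyme of mitochondrial folate metabolism, by 0.60 (adjusted p = 3.08e-05). ALDH1L2, which burns mitochondrial formyl-folate, fell from 10.7, 14.03 and 8.26 to 3.94, 0.731, 2.70 and 2.76 CPM on 2 to 63 UMIs per library (log2 change -2.23 ± 0.32, adjusted p = 5.62e-05), and its difference between day 7 and day 3 was 0.24 ± 0.39 (adjusted p = 0.807). The log2 change of MTHFD1L, a neighbour in that pathway, was -0.28 ± 0.09 (adjusted p = 0.0816). CBS, which joins serine and homocysteine on the way to cysteine, fell from 103 ± 5.9 to 57.3 ± 5.21 CPM (log2 change -0.85 ± 0.09, adjusted p = 6.52e-07), and PYCR1, the last step of proline synthesis, from 116 ± 1.57 to 79.0 ± 1.76 CPM (log2 change -0.56 ± 0.09, adjusted p = 0.00017). CTH, the next step after CBS, had -0.97 ± 0.33 (adjusted p = 0.109). CBS has a near-identical copy in some annotations of GRCh38, so its count is uncertain.

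The tRNA synthetases are written with the older symbols of the table, GARS for GARS1 and so on. GARS (chromosome 7, 30594681 to 30634033, plus strand), for glycine, stood at 471, 442 and 446 CPM untreated and at 229.8, 233, 231 and 212 CPM at day 3, which is 2.00-fold lower (log2 change -1.0006 ± 0.07, adjusted p = 1.08e-10). MARS, for methionine, stood at 333, 331 and 316 CPM untreated and at 202, 196, 172 and 206 CPM at day 3, and YARS, for tyrosine, at 249.6, 257 and 259 and 164, 144, 146 and 154 CPM. In these 3 genes the groups did not overlap, and MARS and YARS fell by 0.75 each (adjusted p = 2.96e-08 and 5.04e-08). CARS (cysteine, -0.66 ± 0.09), SARS (serine, -0.64 ± 0.08), AARS (alanine, -0.60 ± 0.09) and WARS (tryptophan, -0.54 ± 0.08) fell as well, with adjusted p from 4.55e-06 to 5.98e-05. IARS (isoleucine, -0.37 ± 0.09, adjusted p = 0.0178), TARS (threonine, -0.31 ± 0.08, 0.027) and NARS (asparagine, -0.31 ± 0.08, 0.0289) fell less. The call of IARS was lost without untreated library 1 or day 3 library 11 or 12 (adjusted p up to 0.132), that of TARS without untreated library 1 or 4 or day 3 library 10, 11 or 12 (adjusted p up to 0.145) and that of NARS without untreated library 1 or 2 or day 3 library 9, 11 or 12 (adjusted p up to 0.14). TARS was also the 1 synthetase of the 10 that differed at day 7, where it was higher than at day 3 by 0.29 ± 0.08 (log2, adjusted p = 0.017).

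Among the transporters, SLC7A5, the light chain of the carrier for large neutral amino acids, stood at 145, 121 and 168 CPM untreated and at 83.4, 72.4, 99.99 and 83.3 CPM at day 3 (log2 change -0.77 ± 0.13, adjusted p = 0.00285). The untreated libraries were spread widely, but the lowest was above the highest day 3 library. SLC3A2, the heavy chain that SLC7A5 and SLC7A11 share, fell by 0.43 (adjusted p = 0.0011), and SLC1A5, which carries glutamine, by 0.47 (adjusted p = 0.000407). SLC7A11, the light chain of the cystine and glutamate exchanger, was low, at 4.46, 4.23 and 6.09 CPM untreated and at 2.25, 1.46, 0.45 and 0 CPM at day 3, or 0 to 19 UMIs per library. Its call (adjusted p = 0.0108) rests on those few molecules. SLC38A1, another glutamine carrier, fell from 33.7 ± 1.72 to 21.6 ± 3.73 CPM (adjusted p = 0.00828), a call lost without untreated library 2 or day 3 library 12 (adjusted p up to 0.0667).

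**Figure D2:**
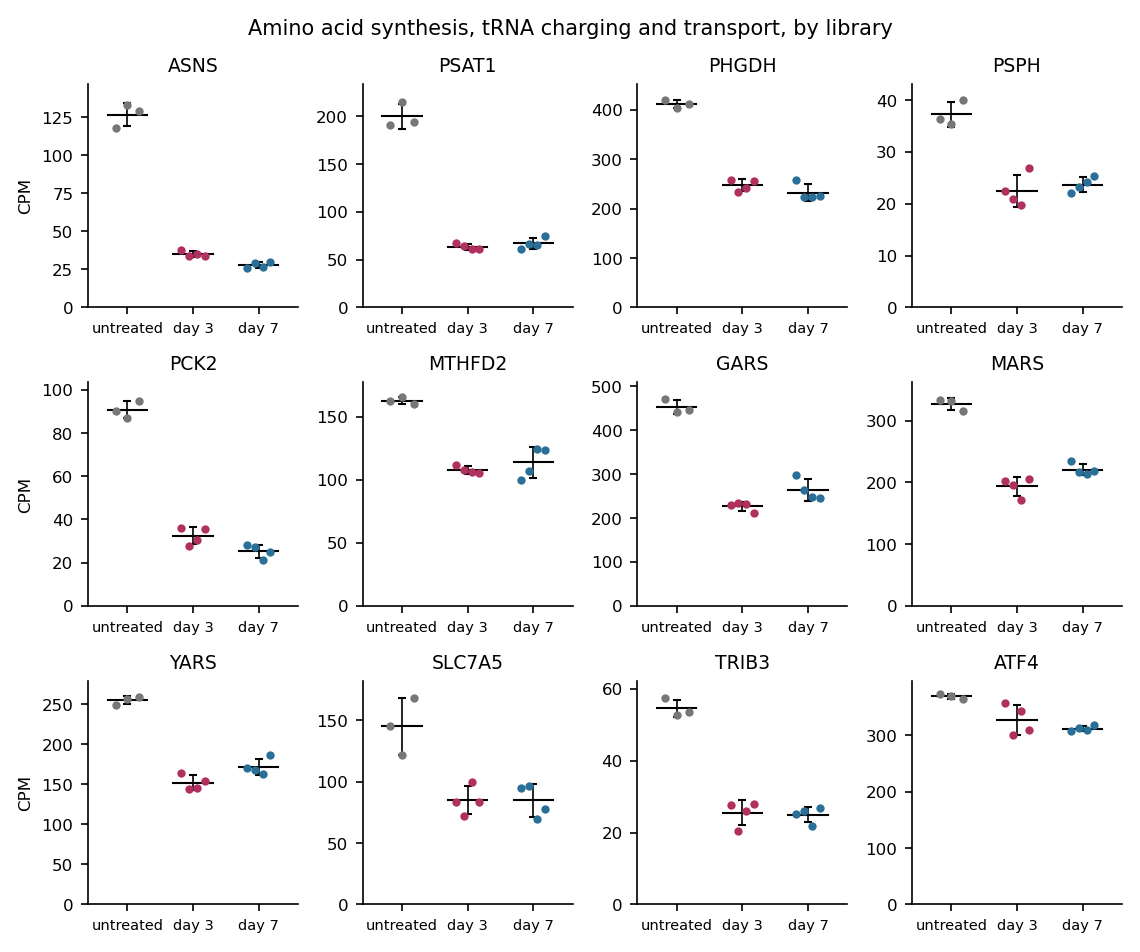
CPM (vertical, from 0) of 12 genes of amino acid synthesis, tRNA charging, transport and their control in the 3 untreated, 4 day 3 and 4 day 7 libraries. Points are libraries, lines the mean and bars the SD. In 11 genes the day 3 libraries lie below all untreated libraries with no overlap, and in ATF4 the gap is small.

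The transcript of ATF4 itself, the factor whose name the first list carries and which is controlled mainly through translation, stood at 374, 369 and 365 CPM untreated and at 357, 300.5, 343 and 310.0 CPM at day 3. Its groups did not overlap, but the log2 change of -0.18 ± 0.07 did not pass the test (adjusted p = 0.167). Of the regulators around it, TRIB3, a pseudokinase that dampens ATF4, fell from 57.4, 52.8 and 53.5 to 27.6, 20.5, 26.1 and 28.0 CPM (log2 change -1.10 ± 0.13, adjusted p = 9.2e-07). NUPR1, a small stress-induced chromatin protein, fell from 41.6, 42.8 and 44.8 to 13.0, 12.8, 7.21 and 15.4 CPM (log2 change -1.82 ± 0.17, adjusted p = 2.96e-08). EIF4EBP1, which holds back translation initiation, fell from 276 ± 8.59 to 194 ± 12.6 CPM (adjusted p = 0.000918), and GDF15, a secreted stress hormone, from 45.4 ± 1.01 to 31.5 ± 0.905 CPM (adjusted p = 0.00725). Other members were not called: ATF5 (-0.38 ± 0.17, adjusted p = 0.276), SESN2 (-0.46 ± 0.14, 0.0636), CHAC1 (-0.20 ± 0.17, 0.607), DDIT3 (-0.02 ± 0.11, 0.949) and ATF3 (0.37 ± 0.22, 0.407). ATF5, DDIT3 and ATF3 are transcription factors of the same response, SESN2 an inhibitor of mTORC1 and CHAC1 an enzyme that degrades glutathione.

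The promoters of these genes were searched for TGATGNAA, the core of the composite site that ATF4 and C/EBP factors bind, on both strands of the 250 bases before the start in RefSeq's promoters of GRCh38.p14. Of the 29 genes that fell, 21 had a promoter in the table and 5 of these held the letters (23.8%), beside 6 of 35 members not called (17.1%) and 3.89% of 27305 promoters of all genes. A match is a description of the letters, not a site. RefSeq's start is that of 1 transcript, while GENCODE's gene spans run over all its transcripts. A stretch can thus lie before RefSeq's start and inside the span of the gene. Those of ASNS, GARS1, IARS1 and SLC1A5, and of PFKFB3 and ANGPTL4 below, do so. The stretches are shown on the strand of the gene, with the match in capitals, because these genes fell together. They lie at chr7:97872458-97872487 (minus strand, the match beginning 68 bases before the start) for ASNS, chr16:70289675-70289704 (minus) for AARS1, chr7:30594834-30594863 (plus) for GARS1, chr9:92293698-92293721 (minus) for IARS1 and chr19:46784893-46784922 (minus) for SLC1A5. In AARS1, GARS1 and IARS1 the match is on the opposite strand and reads in reverse.
ASNS: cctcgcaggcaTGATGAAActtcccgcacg
AARS1: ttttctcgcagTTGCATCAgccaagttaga
GARS1: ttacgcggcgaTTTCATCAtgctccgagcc
IARS1: ttttcagcgcgTTGCATCAcctcc
SLC1A5: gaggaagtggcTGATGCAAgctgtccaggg

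Genes that hypoxia is known to raise moved the other way. Of 38 hypoxia targets tested 10 rose (26.3%, against 1.84% of all genes) and 0 fell, with a median log2 change of 0.24. The 10 were 9 to 13 when 1 library was left out, 9 with DESeq2 and 11 with limma-voom. NDRG1, a stress-responsive protein that HIF and MYC control, had the largest rise of any called gene with a mean of at least 20 CPM: it stood at 65.1, 64.8 and 83.1 CPM untreated and at 246, 209.8, 263 and 182 CPM at day 3. Every day 3 library was above 2 times the highest untreated one, and NDRG1 rose 3.20-fold (log2 change 1.68 ± 0.11, adjusted p = 6.66e-10). At day 7 it stood at 116 ± 2.69 CPM (SD, n = 4), lower than at day 3 (log2 -0.96 ± 0.10, adjusted p = 5.19e-07).

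ANGPTL4 (chromosome 19, 8363289 to 8374373, plus strand), a secreted inhibitor of lipoprotein lipase, stood at 5.35, 5.79 and 6.09 CPM untreated and at 17.5, 21.2, 17.1 and 19.7 CPM at day 3, on 14 to 58 UMIs per library, and rose 3.32-fold (log2 change 1.73 ± 0.19, adjusted p = 5.35e-07). Its groups were far apart, and at day 7 it stood higher still, at 43.8 ± 3.43 CPM (day 7 minus day 3 1.20 ± 0.13, adjusted p = 1.24e-07). BNIP3 (chromosome 10, 131966455 to 131982013, minus strand), a receptor for the removal of mitochondria, stood at 471, 439 and 415 CPM untreated and at 629.8, 614, 627 and 654 CPM at day 3 (log2 change 0.51 ± 0.07, adjusted p = 1e-05). The 4 day 3 libraries lay close together above the untreated ones, and at day 7 BNIP3 stood at 476 ± 17.9 CPM, lower than at day 3 (log2 -0.41 ± 0.06, adjusted p = 4.91e-05). VEGFA, the vascular growth factor, stood at 89.8, 92.0 and 95.2 CPM untreated and at 125, 147, 145 and 137 CPM at day 3 (log2 change 0.59 ± 0.09, adjusted p = 8.18e-05). HILPDA, a lipid droplet protein that inhibits lipolysis, rose from 60.2 ± 4.23 to 86.7 ± 4.61 CPM (SD, n = 3 and n = 4; adjusted p = 0.000918) and was lower again at day 7, at 65.0 ± 3.2 CPM (day 7 minus day 3 -0.41 ± 0.09, adjusted p = 0.00276). BHLHE40, a clock repressor, rose (0.45 ± 0.10, adjusted p = 0.00807), a call lost without untreated library 1 (adjusted p = 0.0604), and MXI1, a MYC antagonist, rose as well (0.44 ± 0.12, adjusted p = 0.0393), a call lost without untreated library 1, 2 or 4 or day 3 library 9, 10 or 11 (adjusted p up to 0.204) and with DESeq2, library size as the scaling or thinned counts.

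Glucose uptake and its control stood among the same genes. SLC2A1, a glucose transporter of most cells, stood at 163, 163 and 176 CPM untreated and at 232, 242, 246 and 249 CPM at day 3 (log2 change 0.54 ± 0.07, adjusted p = 1.41e-05), without overlap. PFKFB4, which sets the level of the phosphofructokinase activator fructose 2,6-bisphosphate, rose from 16.3 ± 1.03 to 28.9 ± 1.91 CPM (log2 change 0.82 ± 0.14, adjusted p = 0.000727). Of 26 glycolysis genes 5 rose (19.2%, against 1.84% of all genes) and 0 fell. Beside SLC2A1 and PFKFB4 these were PFKFB3 (0.41 ± 0.10, adjusted p = 0.0111), the enolase ENO2 (0.36 ± 0.08, 0.00481) and glucose phosphate isomerase GPI (0.34 ± 0.08, 0.0125). The last 3 calls were lost without 1 library or another: PFKFB3 without untreated library 4 (adjusted p = 0.0619), ENO2 without untreated library 1 (adjusted p = 0.0533) and GPI without untreated library 2 or 4 or day 3 library 9 (adjusted p up to 0.0987), and the 5 were 3 without untreated library 4 and 9 without day 7 library 17. ENO2 and GPI were lower at day 7 than at day 3 (log2 -0.33 ± 0.07 and -0.30 ± 0.07, adjusted p = 0.00358 and 0.0131). LDHA, which makes lactate, ranged from 915 to 1508 CPM untreated and from 1286 to 1934 CPM at day 3 (log2 change 0.38 ± 0.20, adjusted p = 0.395), so its groups overlap.

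Other hypoxia targets were not called. CA9, a carbonic anhydrase that is a standard hypoxia marker, stood at 29.1, 26.5 and 24.4 CPM untreated and at 42.8, 37.3, 25.2 and 45.8 CPM at day 3, with day 3 library 11 inside the untreated range (log2 change 0.49 ± 0.16, adjusted p = 0.1). At day 7 it stood at 12.2 ± 2.27 CPM, lower than at day 3 (log2 -1.61 ± 0.17, adjusted p = 2.23e-07). ADM (0.04 ± 0.10), a vasodilator peptide, PDK1 (-0.05 ± 0.17), which blocks pyruvate entry into mitochondria, and BNIP3L (0.03 ± 0.13), the relative of BNIP3, had adjusted p of 0.899, 0.932 and 0.94. KDM3A (0.63 ± 0.19, adjusted p = 0.0624), a histone demethylase, and P4HA1 (0.45 ± 0.13, 0.058), a collagen prolyl hydroxylase, missed the threshold. Of 6 genes of the HIF pathway's own machinery, among them HIF1A (0.06 ± 0.13), EPAS1 (0.24 ± 0.08), VHL (0.20 ± 0.32) and the prolyl hydroxylase EGLN1 (-0.07 ± 0.14), edgeR, DESeq2 and limma-voom called 0, and 1 had an unadjusted p under 0.05. HIF is controlled mainly by the stability of its protein, which these data do not measure.

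**Figure D3:**
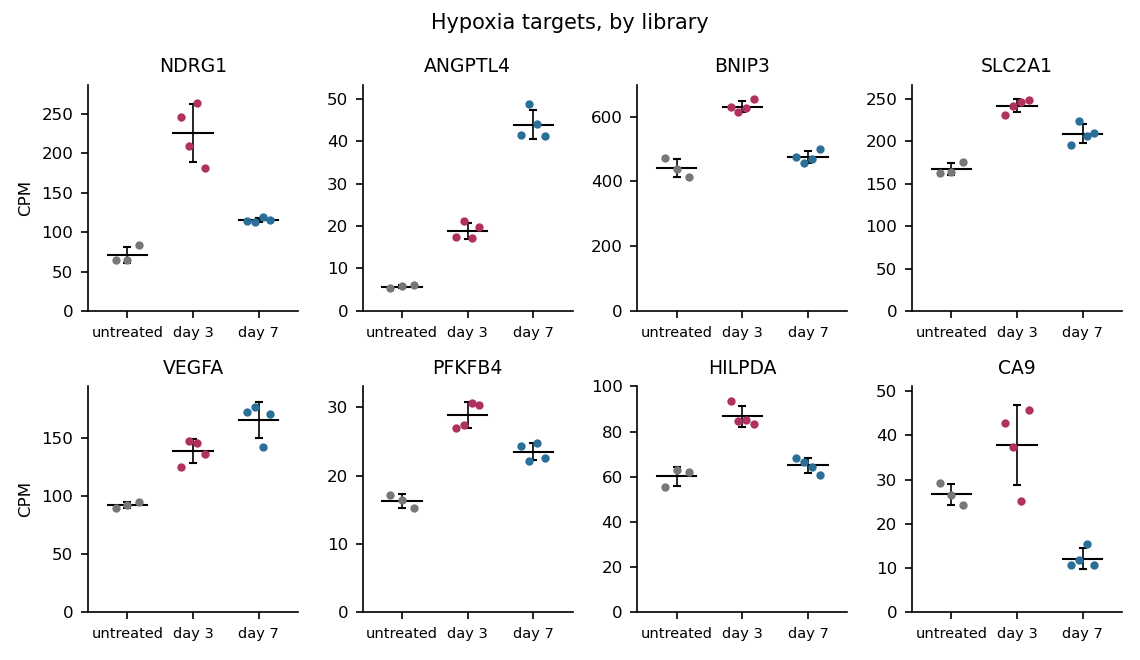
CPM (vertical, from 0) of 8 hypoxia targets in the 3 untreated, 4 day 3 and 4 day 7 libraries. Points are libraries, lines the mean and bars the SD. NDRG1, BNIP3 and HILPDA are higher at day 3 than at either other time, ANGPTL4 is highest at day 7, and CA9 overlaps between untreated and day 3.

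ACGTG, the core of the hypoxia response element, was searched in the same way. Of the 10 genes that rose 7 had a promoter in the table and 5 held the letters (71.4%), beside 15 of 23 members not called (65.2%) and 21.7% of all promoters. The letters are thus about as frequent in members that were not called. 3 of these matches, chosen from genes described above, lie at chr10:131982040-131982068 (minus strand) for BNIP3, chr10:6202813-6202841 (plus) for PFKFB3 and chr19:8363909-8363937 (plus, the match reading in reverse) for ANGPTL4, shown on the strand of the gene with the match in capitals.
BNIP3: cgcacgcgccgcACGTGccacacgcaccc
PFKFB3: accctcctccccACGTGgaagggggctgg
ANGPTL4: ggaaagaagagtCACGTctcccacggttc

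The smallest adjusted p among the genes that rose belonged to a mitochondrial protein. PPIF (chromosome 10, 79347469 to 79355337, plus strand), cyclophilin D, a regulator of the permeability transition pore, stood at 255, 239 and 226 CPM untreated and at 586, 615, 591 and 632 CPM at day 3. It rose 2.52-fold without overlap (log2 change 1.33 ± 0.07, adjusted p = 5.61e-14) and stood at 878 ± 35.6 CPM at day 7, higher than at day 3 by 0.53 ± 0.06 (adjusted p = 5.53e-07). HSPD1, the mitochondrial chaperonin, rose from 429, 460.4 and 443 to 639.9, 607, 594 and 580.1 CPM (log2 change 0.44 ± 0.08, adjusted p = 0.00149). The other 19 of 21 genes of mitochondrial import, proteases and chaperones were not called. Of 36 complex I genes 0 were called by edgeR, DESeq2 and limma-voom, with 2 at an unadjusted p under 0.05, and of 78 genes of the mitochondrial ribosome 2 rose (2.56%), near the background of 1.84%. One of them, MRPS11, rose from 118 ± 5.18 to 152 ± 4.92 CPM (adjusted p = 0.00535). The other, MRPL32 (0.36 ± 0.09, adjusted p = 0.0209), lost its call without untreated library 1, 2 or 4 or day 3 library 11 or 12 (adjusted p up to 0.0965) and with thinned counts. Of 35 genes of complexes II to V 2 rose (5.71%), COX7C (0.31 ± 0.07) and ATP5G1 (0.26 ± 0.07). The call of COX7C was lost without untreated library 1 or 4 or day 3 library 11 (adjusted p up to 0.0753). That of ATP5G1 was lost without untreated library 1, 2 or 4 or day 3 library 9, 10 or 12 or day 7 library 18 or 19 (adjusted p up to 0.201). ATP5G1 was also lost with DESeq2, limma-voom, thinned counts, every other scaling and filter tried, and no robust fit.

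Chaperones, the endoplasmic reticulum and the cytosolic ribosome showed small rises that depend on single libraries. Of 24 cytosolic chaperone genes 4 rose (16.7%, against 1.84% of all genes). They were STIP1 (0.27 ± 0.07), which links HSP70 to HSP90, and CCT3 (0.25 ± 0.06), TCP1 (0.29 ± 0.08) and CCT2 (0.24 ± 0.07), subunits of the TRiC ring that folds actin and tubulin. None was called without untreated library 1, and the list then had 0 rises. STIP1 was also lost without untreated library 4 or day 3 library 11 or 12. CCT3 was lost too without untreated library 2 or 4 or day 3 library 9 or 12, and TCP1 without untreated library 2 or day 3 library 10, 11 or 12. CCT2 was lost as well without untreated library 2 or 4, day 3 library 9, 10 or 12 or day 7 library 19 or 20. TCP1 and CCT2 also lost their calls with library size as the scaling, CCT2 with upper-quartile scaling and no robust fit, and STIP1 with thinned counts. CRYAB, a small heat shock protein, stood at 28.6, 26.1 and 21.7 CPM untreated and at 11.8, 12.8, 9.46 and 10.3 CPM at day 3 and fell 2.31-fold (log2 change -1.21 ± 0.18, adjusted p = 7.39e-05), and at day 7 it was lower again, at 6.01 ± 1.08 CPM (day 7 minus day 3 -0.90 ± 0.21, adjusted p = 0.00886). Of 23 genes of the unfolded protein response 3 rose (13%), and 0 without untreated library 2. The 3 were CALR (0.29 ± 0.07), CRELD2 (0.33 ± 0.09) and CANX (0.28 ± 0.08), folding factors of the endoplasmic reticulum. CALR was also lost without untreated library 1 or day 3 library 10 or 11. CRELD2 was lost too without untreated library 1 or 4 or day 3 library 9, 11 or 12. CANX was lost as well without untreated library 4, day 3 library 9, 10, 11 or 12 or day 7 library 19. With DESeq2 1 of the 3 was called. CRELD2 also lost its call with library size as the scaling and with thinned counts, and CANX with limma-voom, every other scaling and filter tried, and no robust fit. Of 74 ribosomal protein genes 6 rose (8.11%), between 0.22 and 0.34 on the log2 scale, and 68 had a log2 change above 0, with a median of 0.15. That count was 0 without untreated library 1 and 16 without day 7 library 17, and 10 with DESeq2, and pseudogenes make these counts uncertain.

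Among genes of inflammation most calls were rises. Of 26 NF-kB and inflammatory genes 8 rose (30.8%, against 1.84% of all genes) and 1 fell (3.85%, against 1.67%). Their median log2 change was 0.16, and the 8 were 6 to 8 when 1 library was left out. SOD2, the mitochondrial superoxide dismutase, stood at 168, 182 and 179 CPM untreated and at 301, 245, 341 and 282 CPM at day 3 (log2 change 0.72 ± 0.09, adjusted p = 7.39e-06). IL11, a cytokine of the IL-6 family, stood at 166, 209 and 230.5 CPM untreated and at 309, 281, 289 and 340.4 CPM at day 3 (log2 change 0.60 ± 0.10, adjusted p = 0.000984). IL1B, the secreted fever cytokine, stood at 175, 175 and 172 CPM untreated and at 223, 232, 222 and 221 CPM at day 3, a small rise of tight groups (log2 change 0.37 ± 0.07, adjusted p = 0.00363). The groups of these 3 genes did not overlap. At day 7 IL1B stood at 536 ± 47.9 CPM, higher than at day 3 by 1.25 ± 0.07 (adjusted p = 1.83e-13), and IL11 at 379 ± 35.9 CPM, higher by 0.31 ± 0.09 (adjusted p = 0.0448), while SOD2 differed by 0.05 ± 0.08 (adjusted p = 0.781).

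Of the low-count members, CSF3, the granulocyte growth factor, stood at 2.08, 4.23 and 3.04 CPM untreated and at 10.7, 10.2, 9.91 and 7.90 CPM at day 3, on 7 to 28 UMIs per library (adjusted p = 0.000737). PTGS2, which makes prostaglandins, stood at 1.19, 1.56 and 0.435 and 3.38, 6.21, 6.76 and 3.16 CPM, on 1 to 17 UMIs (adjusted p = 0.00481). Both were without overlap. CXCL2, a neutrophil chemokine, rose from 33.7 ± 2.22 to 51.0 ± 7.33 CPM (adjusted p = 0.00612), and its close relative CXCL3 had a call (log2 change 0.76 ± 0.19, adjusted p = 0.0234) although day 3 library 9 lay within the untreated range, lost without untreated library 1 or 2 or day 3 library 10, 11 or 12 (adjusted p up to 0.155) and with thinned counts. The sequences of these chemokines are alike, so reads may be split among them. IL6 (0.29 ± 0.08, adjusted p = 0.0409), the acute phase cytokine, lost its call without untreated library 1, 2 or 4 or day 3 library 10, 11 or 12 or day 7 library 19 (adjusted p up to 0.151) and with DESeq2, limma-voom, library size as the scaling or no robust fit. VCAM1, an adhesion molecule, was the 1 member that fell (-0.60 ± 0.15, adjusted p = 0.0221), lost without untreated library 2 or 4 or day 3 library 10, 11 or 12 (adjusted p up to 0.112) and with DESeq2 or thinned counts. Members that were not called include CXCL1 (0.23 ± 0.08), CCL2 (0.16 ± 0.12), ICAM1 (-0.32 ± 0.10) and the feedback inhibitors NFKBIA (-0.14 ± 0.08) and TNFAIP3 (0.13 ± 0.13), with adjusted p from 0.0924 to 0.68. CXCL12, a chemokine outside that list that is best known for holding stem cells in their niche, stood at 178, 177 and 185 CPM untreated and at 347, 336, 359 and 340.0 CPM at day 3 and rose 1.92-fold (log2 change 0.94 ± 0.07, adjusted p = 1.07e-10). Its 3 untreated and 4 day 3 libraries each lay within a narrow range, and at day 7 it was lower than at day 3 (log2 -0.23 ± 0.06, adjusted p = 0.0222).

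Some feedback regulators of ERK signalling also rose. Of 35 immediate early and ERK feedback genes 4 rose (11.4%, against 1.84% of all genes) and 0 fell. DUSP5, a nuclear phosphatase of ERK, rose from 31.3 ± 5.44 to 53.4 ± 7.94 CPM (log2 change 0.73 ± 0.13, adjusted p = 0.000918), and HBEGF, a ligand of the EGF receptor, from 33.4 ± 2.75 to 53.03 ± 6.54 CPM (0.64 ± 0.12, adjusted p = 0.000967). DUSP1 (0.44 ± 0.10, adjusted p = 0.00957), another phosphatase, and NR4A1 (0.73 ± 0.16, adjusted p = 0.00622), an orphan nuclear receptor, lost their calls without untreated library 4 (adjusted p = 0.0575) and without untreated library 2 (adjusted p = 0.069). FOS (-0.08 ± 0.28), JUN (0.10 ± 0.07), EGR1 (-0.23 ± 0.10) and MYC (0.09 ± 0.08) were not called (adjusted p from 0.221 to 0.934). DUSP2, a phosphatase of the same family that was not on the list, stood at 13.7, 13.1 and 19.6 CPM untreated and at 48.4, 38.4, 35.6 and 34.4 CPM at day 3 and rose 2.59-fold without overlap (log2 change 1.37 ± 0.17, adjusted p = 6.23e-06). The medium contains EGF in both groups, per the growth protocol. CSRNP1, a nuclear protein that axin induces, rose from 31.3 ± 4.47 to 52.1 ± 6.42 CPM (adjusted p = 0.000406).

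Of 20 TGF-beta and BMP targets 5 rose (25.0%, against 1.84% of all genes) and 1 fell (5%, against 1.67%), with a median log2 change of 0.19. TGFB1, the ligand, stood at 101, 96.0 and 83.5 CPM untreated and at 131, 143, 135 and 171 CPM at day 3 (log2 change 0.63 ± 0.09, adjusted p = 5.62e-05). ID1, an inhibitor of basic helix-loop-helix factors that BMP signals raise, stood at 294, 306 and 323 CPM untreated and at 523, 444, 458 and 387 CPM at day 3 (log2 change 0.56 ± 0.08, adjusted p = 4.22e-05). ID2, its relative, rose from 77.7 ± 5.91 to 121 ± 9.46 CPM (0.63 ± 0.09, adjusted p = 2.35e-05), and SMAD7, the inhibitory SMAD, from 59.4 ± 2.83 to 80.3 ± 3.97 CPM (0.44 ± 0.09, adjusted p = 0.00503). None of these 4 genes overlapped between groups. ID3 (0.25 ± 0.07, adjusted p = 0.0251) lost its call without untreated library 1 or 2 or day 3 library 9 or 12 (adjusted p up to 0.151). BMP4, a ligand at low level, fell from 8.34 ± 1.2 to 4.49 ± 0.975 CPM (adjusted p = 0.0459), a call lost without untreated library 1, 2 or 4 or day 3 library 9, 10 or 12 or day 7 library 18 or 19 (adjusted p up to 0.179) and with limma-voom or thinned counts. TGFBI (0.13 ± 0.06, adjusted p = 0.308), a matrix protein that TGF-beta induces, was not called. INHBB, the subunit of activin B, stood at 26.2, 19.6 and 14.4 CPM untreated and at 53.5, 49.3, 45.5 and 45.8 CPM at day 3 and rose 2.36-fold (log2 change 1.24 ± 0.15, adjusted p = 4.31e-06). SNAI1, a repressor of epithelial genes, rose from 19.3, 19.4 and 16.1 to 38.9, 31.1, 32.9 and 32.4 CPM (log2 change 0.85 ± 0.14, adjusted p = 0.000268), and its relative SNAI2 from 12.1 ± 1.84 to 21.2 ± 3.45 CPM (adjusted p = 0.0109), a call lost without untreated library 1 or 4 (adjusted p up to 0.0647) and with thinned counts. INHBB and SNAI1 did not overlap between groups.

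Matrix genes changed singly. COL1A2 (chromosome 7, 94394561 to 94431232, plus strand), a chain of type I collagen, stood at 387, 347 and 357 CPM untreated and at 213, 230.3, 222 and 204 CPM at day 3 and fell 1.67-fold (log2 change -0.74 ± 0.07, adjusted p = 2.58e-08). At day 7 it stood at 95.1 ± 3.38 CPM, lower than at day 3 (log2 -1.19 ± 0.07, adjusted p = 1.07e-12), so that the 3 groups lie in separate ranges. COL1A1, the partner chain, ranged from 257 to 291 CPM untreated and from 266 to 291 CPM at day 3 (log2 change 0.01 ± 0.14, adjusted p = 0.98). Of 25 collagen and matrix genes 1 fell (4%, against 1.67% of all genes) and 1 rose (4%, against 1.84%). TNC, tenascin C of developing and injured brain, rose from 47.5 ± 7.66 to 69.4 ± 3.8 CPM (adjusted p = 0.00326). LOXL1, which crosslinks elastin, fell from 222 ± 9.92 to 171 ± 14.4 CPM (adjusted p = 0.00453), the single call among 20 genes of collagen hydroxylation and crosslinking. COL8A2, a short-chain collagen, fell from 28.3, 26.3 and 28.3 to 13.5, 19.4, 13.96 and 15.8 CPM (log2 change -0.79 ± 0.15, adjusted p = 0.0026). Of 28 YAP targets and actomyosin genes 3 fell (10.7%, against 1.67% of all genes). CYR61, a secreted YAP target, fell from 865 ± 48.9 to 653 ± 47.2 CPM (adjusted p = 0.000878). AJUBA, an adaptor at cell junctions, fell from 87.4 ± 9 to 61.9 ± 2.8 CPM (adjusted p = 0.00356). MYL9, a myosin light chain, fell too (adjusted p = 0.0432). Its call was lost without untreated library 1, 2 or 4 or day 3 library 9, 10, 11 or 12 or day 7 library 18 (adjusted p up to 0.141). The integrins ITGA5 (0.34 ± 0.08) and ITGA2 (0.70 ± 0.19) rose and the laminin chain LAMB2 (-0.45 ± 0.12) fell, and without untreated library 1 none of the 3 was called. ITGA5 was also lost without untreated library 2 or day 3 library 10 or 12. LAMB2 was lost too without untreated library 2 or day 3 library 10, 11 or 12, and ITGA2 without untreated library 2 or 4 or day 3 library 10, 11 or 12. DESeq2 called ITGA5 alone of the 3, thinned counts ended the calls of ITGA2 and LAMB2, and library size as the scaling that of ITGA2.

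**Figure D4:**
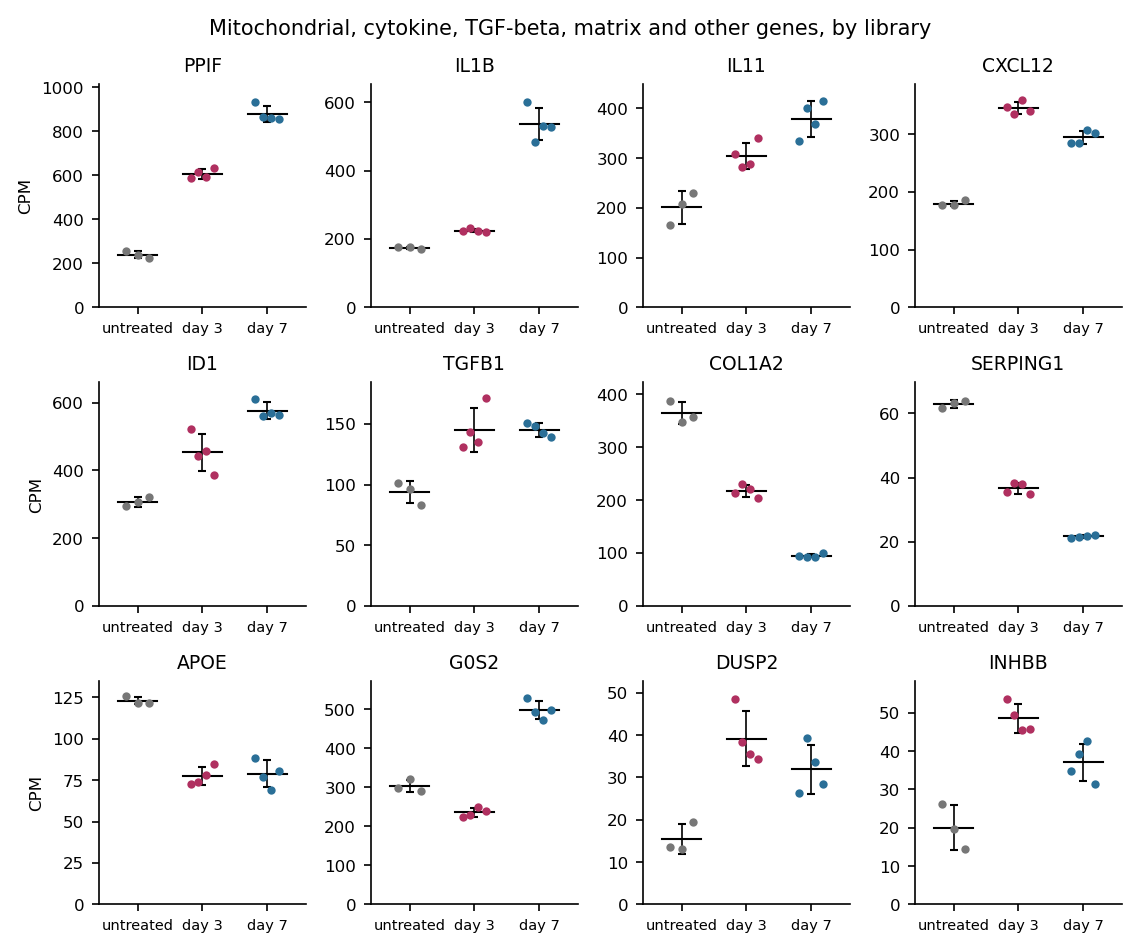
CPM (vertical, from 0) of 12 further genes in the 3 untreated, 4 day 3 and 4 day 7 libraries. Points are libraries, lines the mean and bars the SD. PPIF, IL1B and ID1 are higher again at day 7 than at day 3, COL1A2 and SERPING1 lower again, and G0S2 is lower at day 3 and highest at day 7.

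Genes of innate defence and metal binding fell in small numbers. SERPING1, the inhibitor of complement C1, stood at 61.6, 63.3 and 63.9 CPM untreated and at 35.5, 38.4, 37.8 and 34.8 CPM at day 3 and fell 1.71-fold (log2 change -0.78 ± 0.10, adjusted p = 1.26e-05). At day 7 it stood at 21.7 ± 0.451 CPM, lower again (log2 -0.76 ± 0.11, adjusted p = 2.98e-05). PLAT, the tissue plasminogen activator, fell from 697 ± 38.9 to 550.4 ± 18.4 CPM (adjusted p = 0.0033) and stood at 732 ± 53 CPM at day 7, above day 3 (adjusted p = 8.88e-05). Of 17 type I interferon genes 2 fell (11.8%, against 1.67% of all genes). They were IFITM3 (-0.37 ± 0.08, adjusted p = 0.00481) and IFITM2 (-0.60 ± 0.15, adjusted p = 0.0223), near-identical proteins that block virus entry, and reads may be split between them. The IFITM2 call was lost without untreated library 1 or 2 or day 3 library 11 (adjusted p up to 0.142) and with DESeq2 or thinned counts. Of 9 metallothionein and zinc genes 2 fell (22.2%), MT1E (-0.44 ± 0.08, adjusted p = 0.00125) and MT2A (-0.31 ± 0.08, adjusted p = 0.0238), again close copies. MT2A lost its call without untreated library 1 or 4 or day 3 library 10 (adjusted p up to 0.171). At day 7 MT1E was above day 3 by 0.60 ± 0.08 (adjusted p = 3.94e-06). Of 15 antigen presentation genes edgeR, DESeq2 and limma-voom called 0, with 4 at an unadjusted p under 0.05.

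Chromatin enzymes were among the groups without calls. Over 109 tested genes of 6 lists (15 histone acetyltransferases, 18 deacetylases and sirtuins, 24 lysine demethylases, 32 lysine methyltransferases and Polycomb genes, 9 TET, DNA methyltransferase and RNA demethylase genes, and 11 histone genes), edgeR and limma-voom called 0, DESeq2 called 1 histone gene, and 12 had an unadjusted p under 0.05. Their median log2 changes ran from -0.07 for histone genes to 0.15 for acetyltransferases. In the fit without untreated library 1, 1 demethylase gene was called higher. Of all 10586 genes tested, 1746 had an unadjusted p under 0.05 in the main edgeR fit.

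Lipid, redox and NAD genes held a few calls. G0S2, an inhibitor of the triglyceride lipase of lipid droplets, stood at 299.5, 321 and 292 CPM untreated and at 225, 229, 250.4 and 239.7 CPM at day 3 and fell without overlap (log2 change -0.37 ± 0.07, adjusted p = 0.00159). At day 7 it stood at 499 ± 23.5 CPM, higher than at day 3 by 1.08 ± 0.06 (adjusted p = 1.07e-12). TXNIP, an inhibitor of thioredoxin and of glucose uptake, stood at 209, 178 and 158 CPM untreated and at 154, 109.7, 122 and 107 CPM at day 3 (log2 change -0.58 ± 0.11, adjusted p = 0.00363). Its lowest untreated value was just above its highest day 3 value, and day 7 was lower again, at 80.3 ± 6.75 CPM (adjusted p = 0.00153). QPRT, which makes NAD from tryptophan's breakdown, fell from 19.9, 14.03 and 11.3 to 3.94, 5.48, 4.95 and 8.69 CPM on 7 to 67 UMIs (adjusted p = 0.00952), and NAPRT, which makes it from nicotinic acid, from 74.1 ± 6.83 to 53.8 ± 6.93 CPM (adjusted p = 0.0115). The call of QPRT was lost without untreated library 1 (adjusted p = 0.0695) and that of NAPRT without untreated library 2 or day 3 library 12 (adjusted p up to 0.1). Of 28 cholesterol genes 1 rose (3.57%, against 1.84% of all genes), the cyclase LSS (0.33 ± 0.08, adjusted p = 0.0223). Its call was lost without untreated library 1 or 4 or day 3 library 10 (adjusted p up to 0.128) and with library size as the scaling or thinned counts.

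Growth and repair genes were mostly uncalled. Of 47 S phase genes edgeR, DESeq2 and limma-voom called 0, with 4 at an unadjusted p under 0.05. Of 57 G2/M genes 2 rose (3.51%, against 1.84% of all genes). KIF20A, a kinesin of cytokinesis, rose from 175 ± 8.29 to 228 ± 16.4 CPM (adjusted p = 0.00356). The kinase PLK1 rose too (0.30 ± 0.08, adjusted p = 0.0281), a call lost without untreated library 1, 2 or 4 or day 3 library 10 or 12 (adjusted p up to 0.137). Of 45 DNA repair genes 1 fell (2.22%, against 1.67% of all genes), the helicase ERCC2 (-0.57 ± 0.13, adjusted p = 0.0135). Its call was lost without untreated library 2 or 4 or day 3 library 12 (adjusted p up to 0.117).

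The astrocyte label was read against its markers. GFAP, AQP4, SLC1A2, ALDH1L1, GLUL, FABP7 and SPARCL1 are not in the table, and S100B was at 0.395 to 1.78 CPM in the 7 libraries. VIM (8042 to 10544 CPM), CD44, SOX9, GJA1 and ALDOC, which other cells also express, were present. The label therefore could not be checked on most of the defining markers of mature astrocytes. A gene that is not listed was not measured here, which does not show that it was not expressed. APOE, the lipid carrier that astrocytes secrete, stood at 126, 121 and 122 CPM untreated and at 72.7, 73.8, 77.9 and 84.5 CPM at day 3 and fell without overlap (log2 change -0.67 ± 0.09, adjusted p = 1.99e-05), and it did not differ between day 3 and day 7 beyond the threshold (0.02 ± 0.09, adjusted p = 0.941). Summed CPM of the listed astrocyte markers ran from 8886 to 10385 untreated and from 10390 to 11517 at day 3, most of it VIM. Of the 9 tested, 6 had a log2 change above 0 and 3 below, with a median of 0.17. APOE was the 1 member called lower and ID3, whose call some left-out libraries ended, the 1 called higher. Of the other cell types, PTPRC, AIF1, PECAM1, CDH5, RBFOX3, MOG and SOX10 are not in the table. Summed markers were 48.1 to 57.1 CPM untreated and 41.0 to 54.1 CPM at day 3 for oligodendrocytes, 66.9 to 80.5 and 59.2 to 74.6 CPM for endothelium, and 124 to 132 and 116 to 132 CPM for microglia, nearly all from CD68, a lysosomal protein of many cells. The fibroblast and pericyte markers summed to 1333 to 1393 CPM untreated and to 1127 to 1169 CPM at day 3, with COL1A2 and the peptidase ANPEP (-0.40 ± 0.09, adjusted p = 0.0125) called lower, and COL3A1, DCN and LUM not in the table. Of the 7 tested, 4 had a log2 change above 0 and 3 below, with a median of 0.01, and 0 were called higher. ACTA2 stood at 19.0 to 21.2 CPM untreated and at 24.5 to 30.7 CPM at day 3, and PDGFRB at 16.1 to 21.7 and 22.5 to 24.9 CPM. ANPEP lost its call without untreated library 4 (adjusted p = 0.0558) and with thinned counts, and whether a change of cell makeup had a part in any result was not tested. TUBB3, a tubulin of neurons and dividing cells, rose from 72.99 ± 7.97 to 119 ± 6.57 CPM (adjusted p = 0.0297), lost without untreated library 1 or 2 or day 3 library 9, 10, 11 or 12 (adjusted p up to 0.129). Of the 2 neuron markers tested, the other, SNAP25, went the other way and was not called. It stood at 8.46 to 8.70 CPM untreated and at 6.32 to 7.32 CPM at day 3. KRT7, a keratin of simple epithelia, rose from 33.0 ± 3.74 to 51.2 ± 1.62 CPM (adjusted p = 0.000727), and KRT19 fell from 21.4 ± 1.57 to 11.9 ± 4.15 CPM (adjusted p = 0.0139), lost without untreated library 1 or 2 or day 3 library 11 (adjusted p up to 0.0789).

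Some of the largest changes lay outside the lists. SLC22A23, an orphan organic ion transporter, stood at 12.5, 16.5 and 12.6 CPM untreated and at 32.7, 28.5, 32.0 and 39.1 CPM at day 3 and rose 2.33-fold (log2 change 1.22 ± 0.16, adjusted p = 1.24e-05). RDH10, which makes retinal from retinol, stood at 11.9, 12.9 and 14.4 CPM untreated and at 23.7, 28.9, 31.1 and 25.7 CPM at day 3 and rose 2.12-fold (log2 change 1.08 ± 0.16, adjusted p = 9.15e-05). SAMD11 (0.80 ± 0.14, adjusted p = 0.000959) and MEDAG (0.78 ± 0.13, adjusted p = 0.000392), a promoter of fat cell formation, rose too. DGKA, a diacylglycerol kinase, fell from 46.1, 40.8 and 43.9 to 28.7, 27.0, 25.7 and 21.3 CPM (log2 change -0.77 ± 0.14, adjusted p = 0.000878). HHIP-AS1, a transcript antisense to an inhibitor of hedgehog signals, fell from 36.0, 32.1 and 35.7 to 17.5, 20.8, 18.0 and 21.7 CPM (adjusted p = 0.000838). No source used here gives the strand setting of the count, so its reads cannot be told from those of the gene opposite. In SLC22A23, RDH10, DGKA and HHIP-AS1 the untreated and day 3 libraries did not overlap.

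**Figure D5:**
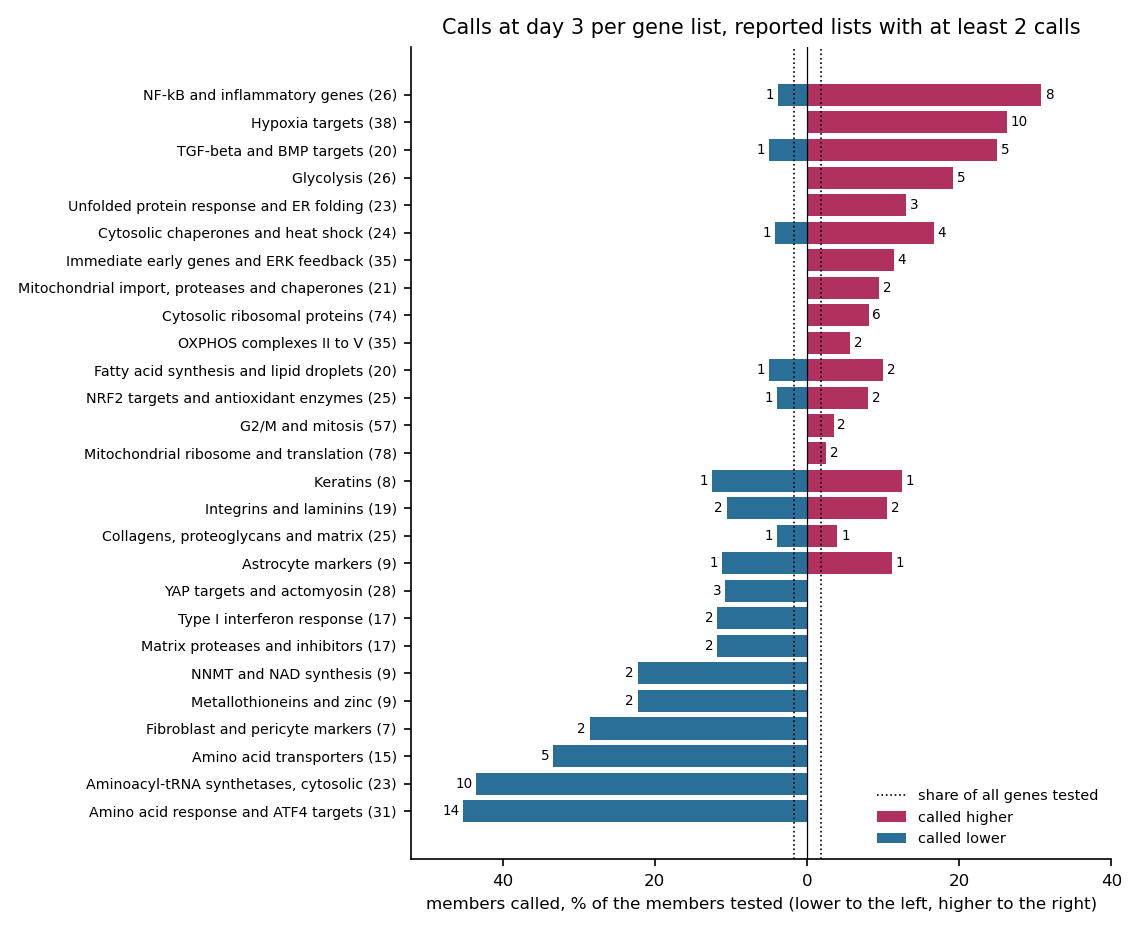
Share of the tested members of each list called higher (right) or lower (left) at day 3, in percent, for reported lists with at least 2 calls. The number tested stands in brackets, the number called at each bar's end, and dotted lines mark the shares of all genes tested (1.84% higher and 1.67% lower). The 3 amino acid lists reach furthest to the left, and the inflammatory, hypoxia and TGF-beta lists furthest to the right.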

How the data were processed

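Bulk MARS-seq libraries were read with bcl2fastq, cutadapt, STAR 2.4.2a, HTSeq and DESeq2 on hg38, per the submitters' processing notes, which give no settings. The authors deposited UMI counts per gene, which are whole numbers, and tables of their own comparisons with log2 fold changes and p-values, per the file headers. Columns X1 and X2 carry numbers that samples of both title tags bear, and they were assigned from the set of columns, which is exactly that of tag b2. In a check against the other deposited table, all 7 shared libraries matched themselves best (r 0.869 to 0.887 over 11481 genes). 55 columns of per-sample values were not used.

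Counts were fitted with edgeR 4.0.16 in R 4.3.3 (TMM scaling, filterByExpr, robust quasi-likelihood test) over 11 libraries of 3 groups, and the day 3 minus untreated contrast was adjusted by Benjamini-Hochberg over 10586 genes at a threshold of 0.05. The script was tested on simulated data. The common biological coefficient of variation was 0.0843. Depth was 2266129 to 4369979 UMIs untreated, 1816599 to 2725520 at day 3 and 2892448 to 4656705 at day 7, and it limits the precision of genes with few UMIs. Alternatives were DESeq2 1.42.0, limma-voom (limma 3.58.1), other scalings, other count filters, thinning to the smallest library leaving out each library and, added after seeing the data, a block on the title numbers.

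Named genes are IDH1, the 12 genes that rose most and the 12 that fell most of those called in all 11 leave-one-out fits and averaging 20 CPM or more, up to 6 called members of each list by p, and the IDH and 2-hydroxyglutarate enzymes. Other names (further called list members, uncalled examples and the genes of the closing observations) were chosen after their values were seen. The groups, members and all 61 lists were chosen with earlier results of these data known. Promoters are RefSeq's (GRCh38.p14). Gene coordinates are GENCODE's on GRCh38, with 94.63% of symbols matched. No mitochondrially encoded gene is listed in the table. Some items are not reported here.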

Additional observations from a re-analysis of the deposited data

Results flagged for a closer look

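In 9 named genes, 1 of the 4 day 3 libraries stood apart from the other 3 by more than Dixon's 95% limit, which chance exceeds in about 1 of 20 groups. The named genes number 145, some not reported here included, so a number near 9 would come by chance. Library 12 was low in GARS (212 CPM) and NAPRT (43.4 CPM) and high in PLK1 (252 CPM). Library 11 was low in ATP5G1 (259 CPM) and MRPS11 (145 CPM). Library 10 was low in STIP1 (259.9 CPM) and MT2A (6036 CPM) and high in LSS (115 CPM) and ITGA2 (17.9 CPM).

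Some genes called at day 3 also differed between day 7 and day 3 (edgeR, adjusted p under 0.05), with log2 differences of day 7 minus day 3 as follows. Of the genes higher at day 3 than untreated, those higher again at day 7 were PPIF (0.53), ANGPTL4 (1.20), IL1B (1.25), IL11 (0.31), IL6 (0.33), CXCL2 (0.55), CXCL3 (1.17), HBEGF (0.35), DUSP1 (0.66), ID1 (0.35), ID3 (0.39), ITGA2 (0.87), CANX (0.28) and MRPL32 (0.29). Those lower at day 7 than at day 3 were NDRG1 (-0.96), CXCL12 (-0.23), BNIP3 (-0.41), HILPDA (-0.41), MXI1 (-0.72), ENO2 (-0.33), GPI (-0.30) and KIF20A (-0.30).

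Of the genes lower at day 3 than untreated, those lower again at day 7 were SERPING1 (-0.76), TXNIP (-0.60), CRYAB (-0.90), IFITM3 (-0.66), IFITM2 (-0.96), COL1A2 (-1.19), LOXL1 (-0.43) and TCEAL3 (-0.26). Those higher at day 7 than at day 3 were G0S2 (1.08), MT1E (0.60), MT2A (0.29), PLAT (0.41), ANPEP (0.54), TARS (0.29) and BEX1 (0.32).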

How the results depend on the processing

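The 372 calls were 191 to 578 when 1 library was left out, 92 to 299 higher and 97 to 279 lower, with 13 to 20 at least 2-fold higher and 17 to 31 at least 2-fold lower. The number higher was 129 with library size alone and 297 with the untreated and day 3 libraries alone. With a mean of at least 20 counts, 9 were at least 2-fold higher and 16 at least 2-fold lower, and DESeq2 gave 14 at least 2-fold lower. In all, DESeq2 called 278, limma-voom 347, thinned counts 274 and a fit that was not robust 342, and the 7 libraries alone 552. Over the named genes called at day 3, the other settings gave 1218 gene values on the same side of the threshold and 79 past it no longer, and leaving out 1 library 1207 and 234, none with a turned direction. Among genes not called, MDH1 turned to -0.02 without untreated library 4 and -0.040 without day 3 library 9 (log2 range -0.040 to 0.11 over the leave-one-out fits), and LDHB to -0.18 and -0.45 (range -0.45 to 0.83), and the cause was not tested. The groups share no replicate number, but their title numbers run in steps of 8 (1, 9 and 17, and so on), and a replicate block on these steps was added after seeing the data. Over 6274 genes, deviations from the group means correlated at 0.189 for untreated 1 and day 3 library 9, -0.0134 for 2 and 10 and 0.21 for 4 and 12. At the same step, day 3 and day 7 libraries correlated at 0.0807 to 0.175, and untreated and day 7 libraries at 0.0132 to 0.152. Pairs at unlike steps ran from -0.269 (untreated 4 and day 3 library 9) to 0.173 (untreated 4 and day 3 library 11). The labels do not say what the steps stand for, so the main fit did not take them as pairs. With the replicate block 400 genes were called, 221 higher and 179 lower, of which 317 were among the 372. Of 131 named calls 11 were lost, and 2 named genes were gained, LDHA (0.42 ± 0.07, adjusted p = 0.00127) and LDHB (0.40 ± 0.11, adjusted p = 0.0478). Under the block 16 ribosomal protein genes and 8 glycolysis genes rose, beside 6 and 5.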

Other observations

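Of 9 tested genes of the BEX and TCEAL family, small proteins encoded together on the X chromosome, 4 fell at day 3 (1.67% of all genes fell), 0 rose and 5 were not called. The family was chosen after its values were seen, which fixes its direction, and its median log2 change was -0.32. BEX2 stood at 19.3, 20.0 and 18.3 CPM untreated and at 11.3, 11.0, 9.91 and 10.7 CPM at day 3 (log2 change -0.85 ± 0.17, edgeR adjusted p = 0.00326), and BEX1 at 162, 157 and 176 and 123, 100.2, 104 and 102 CPM (-0.62 ± 0.08, adjusted p = 1.27e-05). NGFRAP1 (-0.31 ± 0.06, adjusted p = 0.00398) and TCEAL3 (-0.33 ± 0.08, adjusted p = 0.0202) fell less, and TCEAL3 lost its call without untreated library 2 or 4 or day 3 library 10 or 12 (adjusted p up to 0.123).

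KCNAB1, a subunit of potassium channels, stood at 0.595, 0 and 1.30 CPM untreated and at 13.5, 6.58, 15.3 and 6.71 CPM at day 3 (adjusted p = 1.24e-05), on 0 to 34 UMIs per library. The groups did not overlap, and untreated library 2 held no UMI of it. The second deposited table gives 2 to 5 UMIs in the untreated libraries, against 0 to 3 here.

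Some uncalled genes varied widely between libraries of a group. HIST1H1B, a linker histone, stood at 155, 90.4 and 127 CPM untreated and at 42.2, 20.8, 78.8 and 33.6 CPM at day 3, without overlap, and did not pass the test (log2 change -1.52 ± 0.61, adjusted p = 0.256). LDHB, a lactate dehydrogenase subunit, stood at 222, 107 and 46.5 CPM untreated and at 315, 139, 78.4 and 60.8 CPM at day 3 (adjusted p = 0.947), so its groups overlap.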
